A study of Mus musculus with 12 samples.

Results

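The genes described here make, load or encode the transmitters of autonomic nerves, and their transcripts were measured in whole bladders of newborn mice. The members were Th, Dbh, Ddc and Slc18a2 (adrenergic), Chat and Slc18a3 (cholinergic), Nos1 (nitrergic) and Vip, Npy and Gal (neuropeptides). A probe set belonged to a member when that member was its only gene symbol. This gave 16 probe sets for the 10 genes, out of 45101 probe sets and 18193 genes with 1 symbol. For each gene the probe set with the highest mean over the 12 arrays, its main probe set, carries the values unless another is named.

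The 3 groups of FVB/N mice were compared at postnatal day 1, with each array holding whole-bladder RNA of 1 unpooled sample: 3 arrays of SMGA/EGFP transgenic mice, 3 of SMAA/EYFP transgenic mice and 6 of wild-type mice. In these lines a smooth muscle gamma actin (Actg2) or smooth muscle alpha actin (Acta2) promoter drives a fluorescent reporter protein in smooth muscle, so that neurons are not the cells the transgene marks. The study asked what carrying such a transgene does to the expression profile of the bladder. Transgenic offspring came from transgenic sires and FVB/N dams, so that sire, litter and genotype cannot be told apart, and no label says which wild-type mice shared a litter with transgenic ones. The labels do not say that the samples of a group came from separate litters, and p-values measure the spread between these arrays.

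Bladder smooth muscle and its vessels receive sympathetic fibres that release noradrenaline, often with neuropeptide Y, and parasympathetic fibres that release acetylcholine, often with nitric oxide and vasoactive intestinal peptide. In the mouse much of this supply comes from ganglia next to the bladder neck, in which adrenergic and cholinergic nerve cells lie side by side. Transcripts of transmitter genes lie mainly in the cell bodies of these ganglia. In such bulk samples, fewer cells of a type and less RNA per cell cannot be told apart.

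The following features of the arrays precede the results. All animals were labelled male, but on wild type 4 the intensity of Xist was 29604 (80.1 to 250 on the other 11 arrays) and that of Eif2s3y 26.7 (3284 to 5096 on the others), so this array goes against its sex label. The 12 records follow each other in the source database, and the first 6 (SMGA/EGFP 1 to 3, wild type 1 to 3) and the last 6 (SMAA/EYFP 1 to 3, wild type 4 to 6) are called the first and the second record run below. The labels do not say that the runs were handled apart, and SMGA/EGFP and SMAA/EYFP lie in 1 run each, so that run and group cannot be told apart between them. Median intensity was 229 to 306 per array, and the number of arrays limits the precision. Of the smooth muscle markers of the labelled organ, 7 of 7 were tested, with median log2 differences of -0.02 in SMGA/EGFP and -0.02 in SMAA/EYFP against wild type. Some of them lay near the top of the scale, such as Acta2 at 52418 to 71735. Quantile normalisation narrows differences there, so these medians do not show equal muscle content.

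Sequence windows before an annotated start of 4 members are shown because these genes stand for the adrenergic, nitrergic and peptide classes and varied together between arrays. Whether these starts are used in the bladder, and so whether each window acts as a promoter there, was not tested. The windows are the 250 bases before the annotated start (RefSeq, GRCm38.p6), each read 5′ to 3′ on the strand of the gene. Capitals mark the cAMP response element TGACGTCA or its shorter forms TGACG and CGTCA.
Th, chr7:142899996-142900245, minus strand: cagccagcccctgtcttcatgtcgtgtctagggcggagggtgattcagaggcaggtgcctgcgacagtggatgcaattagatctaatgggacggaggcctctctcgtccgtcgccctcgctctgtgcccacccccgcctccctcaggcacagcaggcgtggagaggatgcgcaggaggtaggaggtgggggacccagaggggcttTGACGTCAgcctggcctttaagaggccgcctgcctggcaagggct
Nos1, chr5:117866589-117866838, plus strand: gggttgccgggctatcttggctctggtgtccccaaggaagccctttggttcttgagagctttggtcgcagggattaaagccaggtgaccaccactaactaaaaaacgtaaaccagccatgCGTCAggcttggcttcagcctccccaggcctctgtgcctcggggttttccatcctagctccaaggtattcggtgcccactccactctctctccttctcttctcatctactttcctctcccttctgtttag
Vip, chr10:5638968-5639217, plus strand: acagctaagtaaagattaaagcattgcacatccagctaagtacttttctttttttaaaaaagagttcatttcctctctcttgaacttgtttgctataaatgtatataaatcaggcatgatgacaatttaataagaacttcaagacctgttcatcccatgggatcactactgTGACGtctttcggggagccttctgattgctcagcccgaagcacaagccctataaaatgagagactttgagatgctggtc
Npy, chr6:49822460-49822709, plus strand: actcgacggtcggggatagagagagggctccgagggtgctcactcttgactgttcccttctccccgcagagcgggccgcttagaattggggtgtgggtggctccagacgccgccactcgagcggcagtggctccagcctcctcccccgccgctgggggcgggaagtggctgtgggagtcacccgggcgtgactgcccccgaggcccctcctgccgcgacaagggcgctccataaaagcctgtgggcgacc
The Th window held the full element TGACGTCA, which is its own reverse complement, starting 45 bases before the start of the gene. The Vip window held TGACG 79 bases and the Nos1 window CGTCA 130 bases before the start, and the Npy window held none of these letters. Among all 10 members, which have 11 windows because Ddc has 2 annotated starts, 1 window held TGACGTCA and 6 held TGACG or CGTCA on the printed strand, the Th window counting for both motifs. Of 32851 mouse windows of the same kind and length, 508 (1.55%) held TGACGTCA and 5836 (17.8%) held TGACG or CGTCA. The motif matches are a description of these windows.

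The adrenergic genes were measured with levels that differed widely from bladder to bladder. Th encodes tyrosine hydroxylase, the rate-limiting enzyme of catecholamine synthesis. Its intensity was 569, 469 and 247 in SMGA/EGFP and 209, 137 and 406 in SMAA/EYFP, against 810, 424 and 146 in wild type 1 to 3 and 147, 134 and 150 in wild type 4 to 6. Wild type 1 was the highest array, SMAA/EYFP 3 was above the other SMAA/EYFP arrays, and both transgenic groups overlapped wild type.

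Dbh encodes dopamine beta-hydroxylase, which turns dopamine into noradrenaline and so marks noradrenergic cells. Its main probe set (1459848_x_at) read 777, 844 and 616 in SMGA/EGFP and 290, 365 and 784 in SMAA/EYFP, against 1504, 606 and 480 in wild type 1 to 3 and 304, 346 and 371 in wild type 4 to 6. A second Dbh probe set (1450670_at) read 367 to 614 in SMGA/EGFP and 153 to 490 in SMAA/EYFP, against 84 to 805 in wild type, and another (1447592_at) read 322 to 534 in SMGA/EGFP and 117 to 552 in SMAA/EYFP, against 82 to 372 in wild type. SMAA/EYFP 3 was the highest array of its group on all 3 probe sets, while wild type 1 was the highest wild-type array on 2 of them.

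Ddc encodes aromatic L-amino acid decarboxylase, which makes dopamine and serotonin and is also found outside neurons. Its intensity was 2456, 2529 and 2132 in SMGA/EGFP and 1359, 1822 and 1885 in SMAA/EYFP, against 3840, 2372 and 1336 in wild type 1 to 3 and 1830, 1222 and 1267 in wild type 4 to 6. The 3 SMGA/EGFP arrays lay above the 3 SMAA/EYFP arrays and within the range of wild type. Slc18a2 encodes the vesicular monoamine transporter that loads catecholamines into vesicles. It read 487, 605 and 367 in SMGA/EGFP and 34, 144 and 447 in SMAA/EYFP, against 1218, 500 and 101 in wild type 1 to 3 and 55, 84 and 32 in wild type 4 to 6. The ratio of its highest to its lowest array was 24.4 after normalisation, against 5.08 for Th, 4.69 for Dbh and 3.05 for Ddc.

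The cholinergic pair did not move together. Chat encodes choline acetyltransferase, which makes acetylcholine, and Slc18a3 encodes the vesicular acetylcholine transporter from within the first intron of Chat. Chat read 251, 127 and 132 in SMGA/EGFP and 127, 121 and 154 in SMAA/EYFP, against 198, 209 and 230 in wild type 1 to 3 and 246, 178 and 280 in wild type 4 to 6. All 3 SMAA/EYFP arrays and 2 of the 3 SMGA/EGFP arrays lay below every wild-type array, and wild type 6 was the highest.

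Slc18a3 read 280, 330 and 289 in SMGA/EGFP and 203, 85 and 290 in SMAA/EYFP, against 436, 341 and 94 in wild type 1 to 3 and 13, 25 and 110 in wild type 4 to 6. After normalisation its 3 highest arrays were wild type 1, SMGA/EGFP 2 and wild type 2, which were also the highest for Slc18a2. Chat then had wild type 6, wild type 3 and wild type 4 at the top and SMGA/EGFP 2 at the bottom. Both cholinergic genes were dim, below the filter of log2 8.02 on the mean over all arrays.

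Nos1 encodes neuronal nitric oxide synthase, which makes the relaxing transmitter nitric oxide. Its main probe set (1429887_at) read 1145, 1244 and 1092 in SMGA/EGFP and 703, 717 and 1208 in SMAA/EYFP, against 1869, 1235 and 696 in wild type 1 to 3 and 481, 473 and 521 in wild type 4 to 6. A second probe set (1438483_at) read 755, 1396 and 949 in SMGA/EGFP and 142, 460 and 876 in SMAA/EYFP, against 1679, 1499 and 503 in wild type 1 to 3 and 300, 99 and 177 in wild type 4 to 6. Wild type 4 to 6 were the 3 lowest arrays on the main probe set. The other Nos1 probe sets were dim, at 13 to 112 and 8 to 165, and so was the second Ddc probe set at 7 to 98.

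A peptide gene differed most between arrays. Vip encodes vasoactive intestinal peptide, a relaxing peptide that parasympathetic neurons store with their classical transmitter. Its intensity was 4465, 5944 and 2669 in SMGA/EGFP and 476, 1047 and 2789 in SMAA/EYFP, against 8572, 5309 and 1052 in wild type 1 to 3 and 541, 173 and 547 in wild type 4 to 6. The highest array, wild type 1, exceeded the lowest, wild type 5, 44.9-fold after normalisation, and both belonged to wild type. The SD of Vip over the 12 arrays, 1.72 on the log2 scale, lay at percentile 99.9 of all tested probe sets.

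Npy encodes neuropeptide Y, a peptide that constricts vessels and is stored in most sympathetic neurons. It read 2207, 2746 and 1282 in SMGA/EGFP and 342, 521 and 2738 in SMAA/EYFP, against 4377, 2315 and 571 in wild type 1 to 3 and 355, 329 and 350 in wild type 4 to 6. SMAA/EYFP 3 again stood with the SMGA/EGFP arrays and not with the other 2 of its group. Gal encodes galanin, a peptide of autonomic and sensory neurons. It read 199, 299 and 301 in SMGA/EGFP and 270, 246 and 215 in SMAA/EYFP, against 335, 243 and 112 in wild type 1 to 3 and 210, 270 and 250 in wild type 4 to 6. Gal differed 2.31-fold and Chat 2.24-fold between their highest and lowest arrays, the smallest ratios among the 10 main probe sets.

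**Figure D1:**
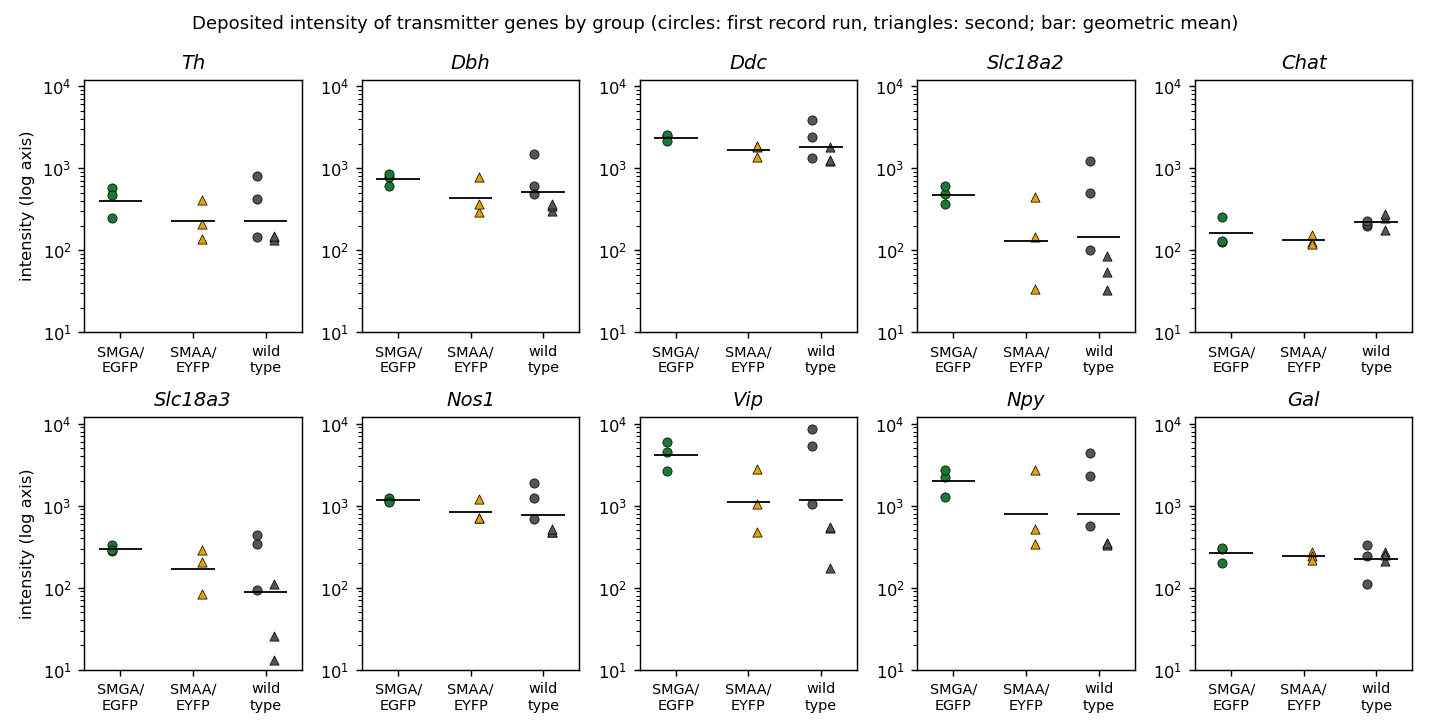
Deposited intensity (log axis) of the main probe set of each of the 10 transmitter genes in the 3 SMGA/EGFP, 3 SMAA/EYFP and 6 wild-type arrays, 1 point per array; circles are the first record run and triangles the second, and bars are geometric means of a group. Wild type reaches from 173 to 8572 for Vip, while Chat and Gal stay between 112 and 335 on all arrays.

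The same arrays were high or low for most members. Wild type 1 was the highest array for 9 of the 10 genes, all but Chat. On SMGA/EGFP 1, 2 and 3, 9, 9 and 8 of the 10 genes lay above their own 12-array mean. This was so of 2, 1 and 7 genes on SMAA/EYFP 1, 2 and 3, of 10, 9 and 1 on wild type 1, 2 and 3, and of 1, 2 and 2 on wild type 4, 5 and 6. Wild type 3 therefore stood with the low arrays of the second record run, and SMAA/EYFP 3 with the high arrays of the first.

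**Figure D2:**
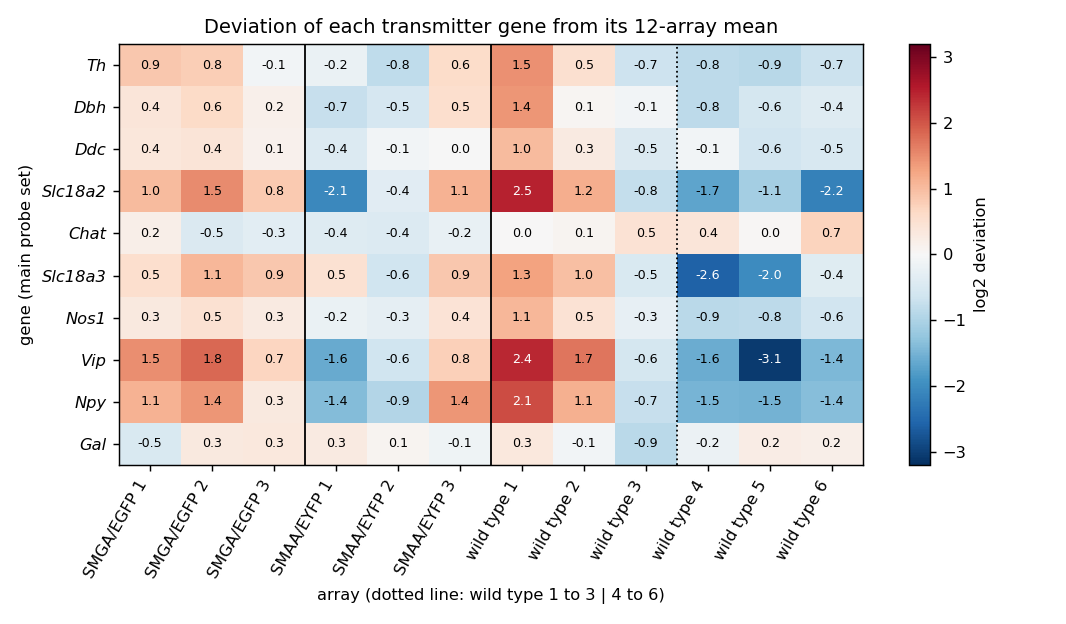
Log2 deviation of each of the 10 genes (rows, main probe set) from its mean over the 12 arrays (columns; solid lines part the groups, the dotted line parts wild type 1 to 3 from 4 to 6). Vip runs from -3.1 on wild type 5 to 2.4 on wild type 1, and Chat and Gal do not follow the other 8 rows.

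Against wild type, no member passed the test in SMGA/EGFP, although 9 of the 10 had higher means. The differences are of log2(intensity + 16) after quantile normalisation, with limma's standard error, and a call needed a Benjamini-Hochberg adjusted p under 0.05. Of the 22518 probe sets tested, 14 (0.0622%) were called in this comparison and 47.1% had a higher mean. Among the members 6 passed the filter (Th, Dbh, Ddc, Nos1, Vip and Npy), and Slc18a2, Chat, Slc18a3 and Gal, which did not, were fitted with all 45037 probe sets, of which 0.0289% were called. Of the 10 members 0 were called, 0 had an unadjusted p under 0.05 (6.94% of all tested) and 0 had arrays that did not overlap wild type (1.12% of all tested above it and 1.61% below it).

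The peptide Vip had the largest difference in SMGA/EGFP against wild type, 1.76 ± 0.97 (SE, adjusted p = 0.745), with means of 12.02 ± 0.60 in SMGA/EGFP (SD, n = 3) and 10.26 ± 2.10 in wild type (SD, n = 6). The wild-type SD was thus larger than the difference. Slc18a2 was at 1.46 ± 0.89 (adjusted p = 0.879), Slc18a3 at 1.35 ± 0.72 (0.879) and Npy at 1.26 ± 0.80 (0.761). Th was at 0.70 ± 0.50, Nos1 at 0.54 ± 0.36, Dbh at 0.46 ± 0.41, Ddc at 0.37 ± 0.29 and Gal at 0.11 ± 0.30, with adjusted p of 0.777 to 0.975. Chat alone had a lower mean, at -0.49 ± 0.25 (adjusted p = 0.874). The median over the 10 members was 0.62, against -0.01 over all tested probe sets. Without wild type 4, the array that goes against its sex label, Vip was at 1.53, Npy at 1.02 and Th at 0.56, and 0 members were called.

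Within the first record run the SMGA/EGFP differences were small for most members. Set against wild type 1 to 3 alone, with the spread of all 12 arrays, Vip was at 0.15 ± 0.72, Slc18a2 at 0.16 ± 0.78, Npy at 0.11 ± 0.70, Th at 0.07 ± 0.48 and Slc18a3 at 0.23 ± 0.59. Dbh was at -0.07 ± 0.38 and Nos1 at -0.05 ± 0.28, the reverse of their signs against all wild type. Chat stayed lower in SMGA/EGFP, at -0.39 ± 0.29. None of these was called (adjusted p = 1), and the standard errors leave room for differences of over 1 log2 unit in Vip. Against all wild type, a different comparison, 0.0622% of all tested probe sets were called. The share of all probe sets called against wild type 1 to 3 in this fit is not given, so the members' lack of calls cannot be set beside it.

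In SMAA/EYFP against wild type, 5 of the 10 members had higher means (50.8% of all tested) and 0 were called. Of all 22518 probe sets limma called 0 (0%, and 0% without the filter) here too, and 1082 (4.81%) had an unadjusted p under 0.05. Vip was at -0.07 ± 0.97, Npy at 0.01 ± 0.80, Th at 0.03 ± 0.50, Slc18a2 at -0.10 ± 0.89, Ddc at -0.12 ± 0.29, Dbh at -0.18 ± 0.41, Gal at 0.14 ± 0.30 and Nos1 at 0.16 ± 0.36 (adjusted p = 0.994 to 1). Slc18a3 was at 0.77 ± 0.72 (adjusted p = 0.998). Chat was at -0.65 ± 0.25, a fold of 0.639, with all 3 SMAA/EYFP arrays below all 6 wild-type arrays, as for 1.28% of all tested probe sets. Its unadjusted p was 0.022 and its adjusted p 0.996, so the Chat difference did not pass.

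Set against wild type 4 to 6 alone, the SMAA/EYFP means were higher for 9 of the 10 members. The differences were 1.90 ± 0.59 for Slc18a3, 1.54 ± 0.72 for Vip, 1.2 ± 0.78 for Slc18a2, 1.15 ± 0.70 for Npy, 0.75 ± 0.28 for Nos1 and 0.66 ± 0.48 for Th (adjusted p = 0.967 for each). Dbh was at 0.35 ± 0.38, Ddc at 0.22 ± 0.28, Gal at 0.00 ± 0.34 and Chat at -0.74 ± 0.29. None of the 10 differences was called. Against all wild type, a different comparison, 0% of all tested probe sets were called. The shares of all probe sets that were higher or called against wild type 4 to 6 in this fit are not given. Without SMAA/EYFP 3 these differences were 1.59 for Slc18a3, 0.91 for Vip, 0.43 for Slc18a2, 0.29 for Npy, 0.52 for Nos1 and 0.30 for Th, and Dbh was at -0.041. Against all 6 wild-type arrays, leaving out SMAA/EYFP 3 gave -0.85 for Npy, -0.70 for Vip and -0.33 for Th. The contrast between both effects, each taken within its own run with no wild-type array shared, called 0 members (2 of all tested, 0.00888%, or 0.00444% without the filter), with the smallest unadjusted p at 0.0624 for Nos1 and 0.0663 for Slc18a3.

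SMGA/EGFP had higher means than SMAA/EYFP for 9 of the 10 members, all but Gal (46.1% of all tested). Of the members 0 were called, against 18 of all tested (0.0799%, or 0.0466% without the filter). Vip was at 1.83 ± 1.12 (adjusted p = 0.630), Slc18a2 at 1.56 ± 1.03 (0.755), Npy at 1.25 ± 0.92 (0.687), Th at 0.66 ± 0.57 (0.735), Dbh at 0.64 ± 0.47 (0.685) and Ddc at 0.49 ± 0.33 (0.665). Slc18a3 was at 0.58 ± 0.83, Nos1 at 0.38 ± 0.42, Chat at 0.16 ± 0.29 and Gal at -0.03 ± 0.34. The arrays did not overlap for Ddc alone, which was 1 of 10 members, against 6.49% of all tested probe sets.

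The clearest separation lay within wild type, between arrays of the same genotype. In wild type 1 to 3 against wild type 4 to 6, 8 of the 10 members had an unadjusted p under 0.05 and a higher mean (4.3% of all tested), and for 6 of the 10 the arrays did not overlap (6.06% of all tested). Overlap was judged after normalisation. For Th, 1 of the 6, the margin was small, with wild type 3 at 7.48 and wild type 6 at 7.46. Its deposited intensities overlapped, at 146 on wild type 3 and 147 and 150 on wild type 4 and 6. Vip was at 3.22 ± 0.72, a fold of 9.31, with means of 11.87 ± 1.55 in wild type 1 to 3 and 8.65 ± 0.90 in wild type 4 to 6 (SD, n = 3 each). Slc18a2 was at 2.60 ± 0.78, Npy at 2.29 ± 0.70, Slc18a3 at 2.25 ± 0.59, Th at 1.25 ± 0.48, Nos1 at 1.19 ± 0.28, Dbh at 1.06 ± 0.38 and Ddc at 0.68 ± 0.28. After adjustment 0 members passed (0.415 to 0.588 for these 8), as did 0% of all tested probe sets (0.00222% without the filter). Chat was at -0.19 ± 0.29 and Gal at -0.27 ± 0.34, with adjusted p of 0.911 and 0.880.

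The calls in this comparison turned on wild type 3. Without it, 430 of all tested probe sets passed (1.91%, or 0.91% without the filter, the fit that gives Slc18a2 and Slc18a3), and 5 members passed: Vip at 4.08 (adjusted p = 0.0105), Nos1 at 1.52 (0.0111), Npy at 3.07 (0.0303), Ddc at 1.04 (0.0394) and Slc18a2 at 3.45 (0.0485). Th and Slc18a3 lay just beyond the threshold, at 0.0513 and 0.0504. Wild type 3 was the array of its set that was low for most members, so leaving it out was bound to widen their differences. The calls without wild type 3 are therefore a description and no support for a difference between both sets. Without wild type 4, the members' differences kept their sign, with Vip at 3.45, Npy at 2.28 and Nos1 at 1.14, and 0 were called. The second Nos1 probe set gave 2.49 ± 0.58 with all arrays.

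**Figure D3:**
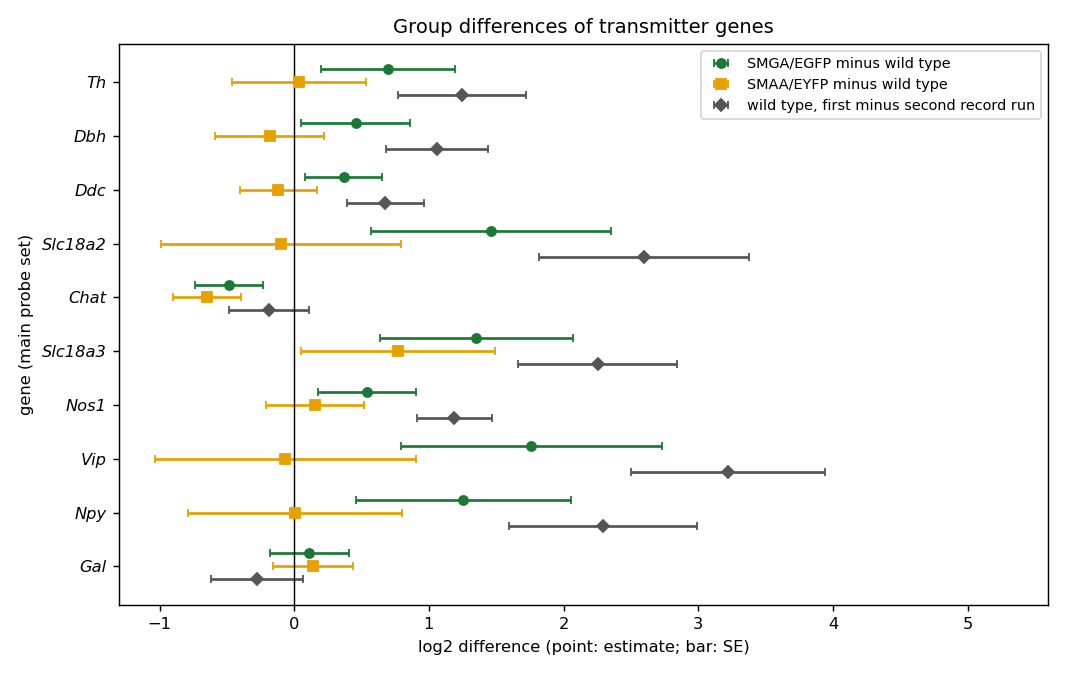
Log2 difference (point) and limma standard error (bar) of the 10 genes in SMGA/EGFP minus wild type (circles), SMAA/EYFP minus wild type (squares) and wild type 1 to 3 minus wild type 4 to 6 (diamonds). For 9 genes, all but Gal, the diamond lies farthest to the right, up to 3.22 for Vip and at -0.19 for Chat, and no point passed the adjusted threshold.

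Adrenergic genes were then set beside cholinergic and nitrergic ones, as means of the log2 deviations of each class, which give no test. In SMGA/EGFP against wild type the adrenergic mean (Th, Dbh, Ddc, Slc18a2) was higher by 0.74, the cholinergic mean (Chat, Slc18a3) by 0.43 and the nitrergic gene Nos1 by 0.54. Of the adrenergic genes Slc18a2, which lay below the filter, was at 1.46, against 0.70 for Th, 0.46 for Dbh and 0.37 for Ddc. The second Nos1 probe set was at 1.07 ± 0.76 (SE) there. The order of adrenergic and nitrergic values thus rested on Slc18a2 and on the Nos1 probe set. The adrenergic mean minus the mean of Chat, Slc18a3 and Nos1 was 0.25 ± 0.24 in SMGA/EGFP (SD, n = 3) and -0.02 ± 0.56 in wild type (SD, n = 6), a difference of 0.28. With Chat left out of the second mean this difference became -0.20, so its sign rested on Chat. Against wild type 1 to 3 alone the adrenergic mean differed by 0.05, the cholinergic by -0.08 and the nitrergic by -0.05, and the adrenergic minus the cholinergic and nitrergic mean differed by 0.12.

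In SMAA/EYFP against wild type the adrenergic mean differed by -0.09, the cholinergic by 0.06 and the nitrergic by 0.16, and the adrenergic minus the cholinergic and nitrergic mean was -0.21 ± 0.54 in SMAA/EYFP (SD, n = 3), a difference of -0.18 from wild type. Without Chat it was -0.56. Against wild type 4 to 6 alone the adrenergic mean differed by 0.61, the cholinergic by 0.58 and the nitrergic by 0.75, and the adrenergic minus the cholinergic and nitrergic mean differed by -0.03. Between wild type 1 to 3 and wild type 4 to 6, the adrenergic mean differed by 1.39, the cholinergic by 1.03, the nitrergic by 1.19 and the mean of Slc18a3 and Nos1 by 1.72. Of the adrenergic genes Slc18a2 was at 2.60 there, against 1.25 for Th, 1.06 for Dbh and 0.68 for Ddc, so this order too rested on Slc18a2. On its second probe set Nos1 was at -0.17 ± 0.76 (SE) in SMAA/EYFP against wild type and 2.49 ± 0.58 between the wild-type sets. For the adrenergic minus the cholinergic and nitrergic mean, the SD between arrays of a group was 0.24 to 0.56, close to or larger than the differences from wild type.

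By array, the adrenergic mean and the mean of Slc18a3 and Nos1 were both above 0 on the same 6 arrays: SMGA/EGFP 1 to 3 (adrenergic 0.65, 0.83 and 0.26), SMAA/EYFP 3 (0.55) and wild type 1 and 2 (1.58 and 0.51). On the other arrays the adrenergic mean was -0.87 and -0.44 in SMAA/EYFP 1 and 2, and -0.49, -0.86, -0.78 and -0.94 in wild type 3, 4, 5 and 6. The mean of Slc18a3 and Nos1 was also below 0 on 5 of these 6 arrays, the exception being SMAA/EYFP 1 at 0.14. Slc18a3 was lowest on wild type 4 and 5, at -2.6 and -2.0.

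General neuron markers were high and low on the same arrays as most members. The list (Prph, Uchl1, Stmn2, Snap25 and others, 17 of 18 genes tested) had a summed intensity of 45830 to 73607 in SMGA/EGFP and 11617 to 57443 in SMAA/EYFP, against 21126 to 100947 in wild type 1 to 3 and 9124 to 15661 in wild type 4 to 6. In SMGA/EGFP against wild type all 17 had higher means, their median was 1.13 and 0 were called, and the median was -0.14 in SMAA/EYFP against wild type. In wild type 1 to 3 against wild type 4 to 6 all 17 were higher, with a median of 2.36. Of these 16 had an unadjusted p under 0.05, against 4.3% of all tested that were higher at this p. Prph, the intermediate filament of peripheral neurons, was at 2.87 ± 0.74 there (adjusted p = 0.441). The part of the neuron content of the samples in the members' differences was not tested.

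**Figure D4:**
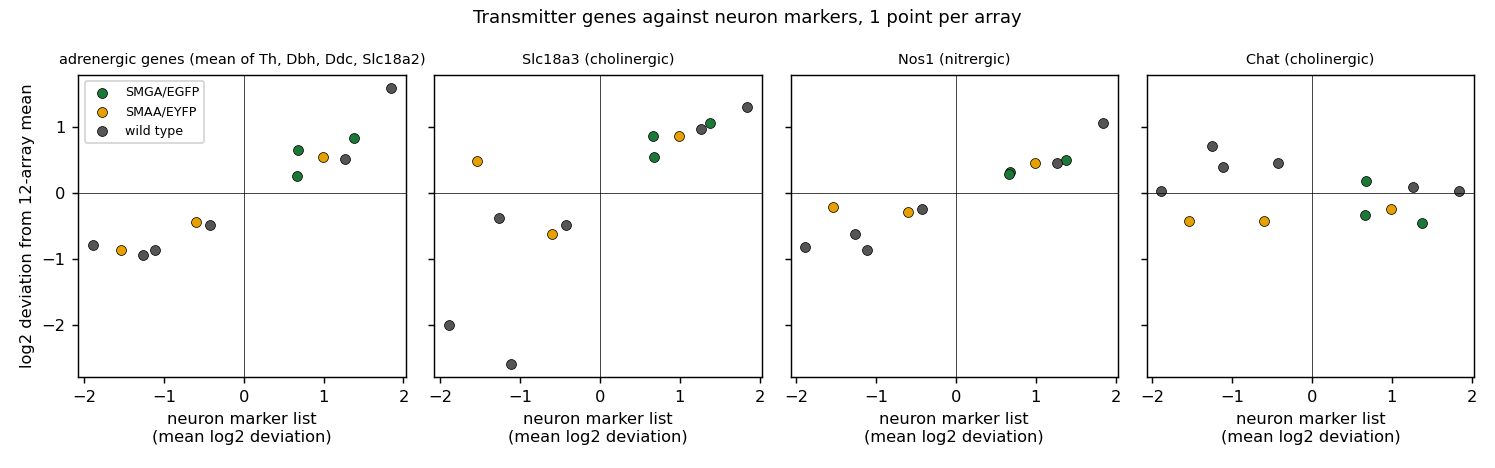
Mean log2 deviation of the adrenergic genes and log2 deviations of Slc18a3, Nos1 and Chat (vertical axes) against the mean log2 deviation of 17 neuron marker genes (horizontal axes), 1 point per array coloured by group. The arrays fall into 6 above and 6 below 0 on the horizontal axis with a gap of 1.10 between them; adrenergic genes and Nos1 are high in the upper 6, and Chat is not.

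The mean deviation of the neuron list left a gap of 1.10 log2 units between 6 high arrays (SMGA/EGFP 1 to 3, SMAA/EYFP 3, wild type 1 and 2) and 6 low ones, so correlations are tested within each side and not over all arrays. The 6 members that passed the filter form 15 pairs. Among the 6 high arrays Pearson's r was 0.65 to 0.94 and Spearman's rho 0.49 to 0.94, above 0 in all 15 pairs. Among the 6 low arrays r was -0.42 to 0.82 and rho -0.49 to 0.94, with r above 0 in 12 pairs. After adjustment over both sides 0 pairs passed the exact permutation test on either side (smallest adjusted p 0.161 for r and 0.2 for rho).

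When each array was taken as its deviation from the mean of its group and run, r was 0.69 to 0.93 over the 12 arrays. This is given as a description with no test, because wild type 3 and SMAA/EYFP 3 lie across the gap from the other arrays of their sets, so that the gap remains in these deviations.

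Each member was also set against the neuron list on each side of the gap. The sides were picked by this same list after seeing the data, and each side mixes arrays of different groups. The p-values below are therefore a description and no support for a link between a member and neurons. Among the 6 high arrays Slc18a2 (r = 0.93, rho = 1.00) and Nos1 (r = 0.91, rho = 1.00) passed (exact permutation test, adjusted p = 0.0139 for r and 0.0278 for rho), and among the low arrays Vip passed for r (0.93, adjusted p = 0.0463) but not for rho (0.94, 0.0833). Npy had r = 0.84 and 0.89 on the high and low sides, Th 0.74 and -0.15, and Dbh 0.75 and 0.55, which did not pass. Chat had r = 0.05 and 0.13, and Gal had 0.52 and -0.74.

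The genes whose pattern over the 12 arrays was most like that of a member were looked up among 11729 tested genes, by Pearson's r as a description; the arrays share the gap described above. Vip was most like Snap25 (r = 0.99), Nefl, Kif5a, Stmn3 and Stmn2. Npy was most like Stmn3 (0.98), Rbfox1, Chgb, Chrna3 and Syn2, and Nos1 like Lhfpl3 (0.98), Gm2102, Rundc3b, Gng4 and Minar2. Th was most like Eef1a2 (0.96), Tmem130, Gng4, Cadm1 and Chgb, and Dbh like Tmeff2 (0.97), Clasp2, Syt11, Gap43 and Map1b. Ddc was most like Zfp445 (0.96), Serpini1, Hoxb3, Socs2 and Epc1, of which none is on the neuron list. Snap25, Nefl, Stmn2, Stmn3 and Gap43 are on that list.

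Other genes of the same pathways did not all follow the members. Slc6a2, the noradrenaline transporter gene, read 291 to 495 over the 12 arrays and was at -0.10 ± 0.18 in SMGA/EGFP against wild type. In the list of catecholamine handling (12 of 13 tested) 7 had higher and 5 lower means in SMGA/EGFP against wild type, 0 were called and the median was 0.10. The list holds Dbi, an acyl-CoA binding protein and not a catecholamine enzyme, at -0.29 ± 0.09 (adjusted p = 0.680), and without it 7 of 11 were higher and the median was 0.11. Among the others were Spr, the last enzyme of tetrahydrobiopterin synthesis, at -0.38 ± 0.18 (0.718), Pcbd1, which recycles that cofactor, at 0.28 ± 0.14 (0.726), and Cyb561, the vesicle cytochrome that supplies Dbh with electrons, at 0.28 ± 0.16 (0.746). In wild type 1 to 3 against 4 to 6 the median was 0.19 (0.24 without Dbi). The 4 adrenergic members were at 0.68 (Ddc), 1.06 (Dbh), 1.25 (Th) and 2.60 (Slc18a2) there.

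Transcription factors of the sympathetic lineage (7 of 12 tested) had a median of 0.65 in SMGA/EGFP against wild type and 0.98 in wild type 1 to 3 against 4 to 6, with 0 called in each. Isl1 was at 1.45 ± 0.79 and 2.26 ± 0.69, and Sox11 at 0.95 ± 0.51 and 1.53 ± 0.43, in these comparisons. Of the list of cholinergic handling 4 of 9 were tested and 0 called. Its nicotinic subunit Chrna3, which carries transmission in ganglia, was at 1.18 ± 0.59 and 1.88 ± 0.47, and the choline transporter Slc44a1 at 0.01 ± 0.06 and 0.07 ± 0.08. The nitric oxide pathway (8 of 13 tested, 0 called) had medians of -0.05 and 0.07, with the endothelial synthase Nos3 at -0.23 ± 0.13 and -0.09 ± 0.15, and the guanylate cyclase subunit Gucy1b1 at -0.23 ± 0.14 and -0.02 ± 0.17.

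Among other neuropeptides and peptide-processing genes (14 of 23 tested) 12 had higher means in SMGA/EGFP against wild type, the median was 0.77 and 0 were called. Cartpt was at 1.05 ± 0.63, Chga, the granule protein chromogranin A, at 1.02 ± 0.64, and the enkephalin precursor Penk at 0.73 ± 0.38, while the cholecystokinin gene Cck was at -0.49 ± 0.29 (adjusted p = 0.732 to 0.761). In wild type 1 to 3 against 4 to 6 the list's median was 1.63, and 0 were called. There 9 of 14 were higher with an unadjusted p under 0.05, against 4.3% of all tested. Of 22 transmitter and peptide receptors 2 passed the filter, and neither was called: Npy1r was at -0.39 ± 0.28 and Adcyap1r1, which binds PACAP, at -0.41 ± 0.18 in SMGA/EGFP against wild type.

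Markers of other cells that hold these transcripts or lie near them were read beside the members. Sums cover every gene of a list with a probe set, also those under the filter. These were 10 genes for Schwann cells and satellite glia and 7 for sensory neurons. Chromaffin cell markers (6 of 6 tested) summed to 9352 to 10832 in SMGA/EGFP and 4798 to 8008 in SMAA/EYFP, against 5296 to 15413 in wild type 1 to 3 and 4520 to 4973 in wild type 4 to 6, and 0 were called. Pnmt, which makes adrenaline and defines these cells, read 352 to 572 in SMGA/EGFP and 156 to 509 in SMAA/EYFP. In wild type it read 253 to 470 on arrays 1 to 3 and 119 to 582 on arrays 4 to 6. Its highest array was wild type 5, so Pnmt did not follow the sum of its list. Schwann cell and satellite glia markers (7 of 12 tested) summed to 39639 to 55572 in SMGA/EGFP and 46169 to 56769 in SMAA/EYFP, against 36863 to 50990 in wild type. In wild type 1 to 3 against 4 to 6 their median was 0.22, against 2.36 for neurons. All 7 had higher means there and 0 were called, with Fabp7 at 1.67 ± 0.43. Sensory neuron markers summed to 4487 to 6147 in SMGA/EGFP and 867 to 4628 in SMAA/EYFP, against 1462 to 8577 in wild type 1 to 3 and 1028 to 1470 in wild type 4 to 6. The sum was thus high and low with the members, but not every gene of the list was. Tac1 read 80 on SMAA/EYFP 3, where the sum was 4628, and 99 on wild type 5, where the sum was 1028. Of this list (1 of 9 tested) only Isl1, also on the sympathetic list, passed the filter. None of these lists passed for any gene in SMGA/EGFP or SMAA/EYFP against wild type, and their part in the members' differences was not tested.

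Mesothelial markers, which belong to the outer lining of the bladder, had 3 of 6 genes called lower in SMGA/EGFP against wild type, and their sum was 15469 to 16972 in SMGA/EGFP and 26566 to 35459 in SMAA/EYFP, against 17676 to 27332 in wild type. In wild type 1 to 3 against 4 to 6 all 6 were lower, the reverse of the members, with 0 called. Urothelial (8 of 8), smooth muscle (7 of 7) and skeletal muscle markers (7 of 8 tested) had 0 called, with medians of 0.17, -0.02 and -0.04 in SMGA/EGFP against wild type.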

How the data were processed

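RNA of 12 whole bladders was hybridised to 1-colour Affymetrix arrays. The authors deposited 1 linear intensity for each probe set, computed in GCOS per the submitters' processing notes; its version, detection calls and filters are not given in the sources used here. Per the labels, 1 round of amplification preceded labelling, and samples were not pooled.

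Values were converted to log2(intensity + 16), which makes fold changes of dim genes smaller, and quantile-normalised with limma 3.58.1 in R 4.3.3. Of 45037 probe sets other than 64 controls, 22518 with a mean above the median (log2 8.02) were tested by limma (lmFit, then eBayes with trend, two-sided) on all 12 arrays, with Benjamini-Hochberg adjustment over all tested. Members under this filter were fitted without it. The model had 3 group means, or 4 (wild type of each record run apart) for the run comparisons. Correlations used exact permutations. Symbols are those of the GEO platform annotation. The script was tested on simulated data.

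The members and lists were chosen with earlier results of these data known. Named genes were the members, the 5 genes of highest r to each tested member, and up to 4 genes of smallest p per list in SMGA/EGFP against wild type. Pnmt, Slc6a2, Tac1, Xist and Eif2s3y were added. Alternatives covered normalisation, pseudocount, filter, trend, record run and each array left out.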

Additional observations from a re-analysis of the deposited data

How the results depend on the processing

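For arrays, their number and the dimness of Chat, Slc18a3, Slc18a2 and Gal limit the precision. No paired analysis was possible because the labels give the groups no shared replicate numbers. In SMGA/EGFP against wild type the count of 14 calls was 5 with a filter at the 75th percentile, 1 within the record run, 8 with only the arrays compared and 6 to 20 with an array left out; no setting called a member. In SMAA/EYFP against wild type the count of 0 was 5 with arrays centred on their median and 0 to 0 with an array left out. In SMGA/EGFP against SMAA/EYFP the count of 18 was 10 with a filter at the 75th percentile and 4 to 21 with an array left out. In wild type of the first against the second record run the count of 0 was 1 with no filter, 1 with a filter at the 25th percentile and 0 to 430 with an array left out, 430 being without wild type 3. In the difference of both effects within their runs the count of 2 was 1 with arrays centred on their median, 0 without an intensity trend and 1 to 3 with an array left out. The class comparison, whose alternatives were chosen after seeing the data, as were the correlations within each side of the gap, ran from 0.11 to 0.44 (SMGA/EGFP against wild type), -0.38 to 0.12 (SMAA/EYFP against wild type) and 0.15 to 0.66 (SMGA/EGFP against SMAA/EYFP) with an array left out. Among the members' values 52 took the opposite sign under an alternative, none of them past the threshold, 1026 kept their direction and side of it, and 5, those without wild type 3, newly passed. The causes were not tested.

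In SMAA/EYFP against wild type, leaving out 1 array gave -0.85 to 0.54 for Npy, -0.33 to 0.36 for Th, -0.70 to 0.50 for Vip, -0.87 to 0.73 for Slc18a2, -0.57 to 0.11 for Dbh, -0.23 to 0.094 for Ddc, -0.074 to 0.41 for Nos1 and -0.019 to 0.25 for Gal. There, values as deposited gave -0.00188 for Npy and -0.029 for Th, and a pseudocount of 64 gave -0.00209 for Npy. The record run as a block gave 0.22 for Ddc, 1.54 for Vip, 1.2 for Slc18a2 and 0.35 for Dbh, and the arrays of 1 run alone gave 0.22, 1.56, 1.18 and 0.36. In SMGA/EGFP against wild type, the run as a block gave -0.053 for Nos1 and -0.074 for Dbh, the arrays of 1 run alone gave -0.052 and -0.072, and Gal was -0.048 to 0.39 with an array left out. In SMGA/EGFP against SMAA/EYFP, Gal was 0.10 as deposited, and with an array left out Gal was -0.17 to 0.25 and Chat -0.032 to 0.28. In SMAA/EYFP against wild type 4 to 6, a set of fits added after seeing the data, Dbh was -0.041 to 0.59 and Gal -0.13 to 0.11 with an array left out. Between both wild-type sets Gal was -0.54 to 0.057 with an array left out, and in the difference of effects Ddc was -0.56 to 0.17, Dbh -0.69 to 0.051 and Gal -0.086 to 0.52.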
